A study of Mus musculus with 60 samples.

Results

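Messenger RNA of the prefrontal cortex and of the striatum was compared within the same wild-type mice. The comparison holds 10 of the 60 libraries of the series: 5 from prefrontal cortex and 5 from striatum, taken by genotype, diet and region in the labels. The mice, numbered 272, 273, 283, 286 and 317, each gave 1 library of either region. They carried wild-type Glo1 and ate normal pellets, with 1.4 mg of vitamin B6 per 100 g, from 8 until 12 weeks of age. The remaining mice of the series were wild type on pellets lacking vitamin B6 (5 µg per 100 g, at the same age) or carried a Glo1 knockout on either of the diets, with 5 mice in each group. These 30 further libraries of the same regions, and the 5 hippocampal libraries of the same wild-type mice, are used below to set the region difference beside samples that played no part in the main test. The strain, the sex and the way the regions were dissected are not given in the sources used here.

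The striatum is the input nucleus of the basal ganglia. Most of its neurons are medium spiny neurons, GABAergic cells that receive glutamate from the cortex and thalamus and dopamine from the midbrain. They fall into a direct pathway class, which carries the D1 dopamine receptor with substance P and dynorphin, and an indirect pathway class, which carries the D2 receptor and an adenosine receptor with enkephalin. In both classes, dopamine acts largely through cyclic AMP and protein kinase A. The prefrontal cortex is a layered sheet in which glutamatergic projection neurons outnumber GABAergic interneurons.

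Library totals were between 8730171 and 13384356 counts. Levels are given as CPM, the count of a gene divided by its library total and scaled to a common depth. On that scale, 3 counts came to between 0.224 and 0.344 CPM. RNA integrity numbers (RIN) averaged 8.68 in striatum and 8.26 in prefrontal cortex. RIN was higher in the striatum of 4 of 5 mice and equal in the fifth (exact two-sided sign-flip test over the 5 mice, p = 0.125). With equal values in that mouse no smaller p was possible, so that the test cannot decide whether RIN differed. Library totals differed between regions by less than their spread. The striatal library of mouse 273 stood apart: its 4 pairs with the other striatal libraries had a chi-square per gene between 9.66 and 19.2, whereas the other 16 pairs within a region lay between 3.20 and 8.78. RIN also differed most between the regions in this mouse, at 9 in striatum and 7.7 in prefrontal cortex, the highest and the lowest of the 10 libraries. The counts of genes and of list members in the main comparison were also made without each mouse in turn.

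The tissue labels were checked against defining genes. Drd1, Drd2 and Adora2a marked the striatal libraries, and the cortical transcription factor Tbr1 was higher in every prefrontal library than in any striatal one. Slc17a7, the vesicular glutamate transporter of cortical projection neurons, was not at 0 in striatum. It was between 50.1 and 110 CPM there and between 434 and 647 CPM in prefrontal cortex. Slc17a7 was chosen after its values were seen. The source of its RNA in the striatal libraries was not tested. In tissue homogenates of this kind, fewer cells of a type and less RNA per cell cannot be told apart.

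Differences between the regions were widespread. Of 12986 genes, 2855 were higher in striatum, which is 22.0 percent, and 2982 were higher in prefrontal cortex, which is 23.0 percent (edgeR quasi-likelihood F-test with mouse as a block, Benjamini-Hochberg adjusted p below 0.05). The differences that reached 2-fold numbered 754 in striatum (5.81 percent) and 984 in prefrontal cortex (7.58 percent). CPM did not overlap between the regions for 710 of the former and 914 of the latter. A lack of overlap, where given below, is therefore what most genes with differences of that size show. The shares of 22.0 and 23.0 percent are the background for every count of list members below. The steepest differences lay on the striatal side, with 69 genes at least 16-fold higher in striatum and 25 at least 16-fold higher in prefrontal cortex. The median log2 fold change of all genes tested was 0.0035. All fold changes below are striatum minus prefrontal cortex on the log2 scale.

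**Figure D1:**
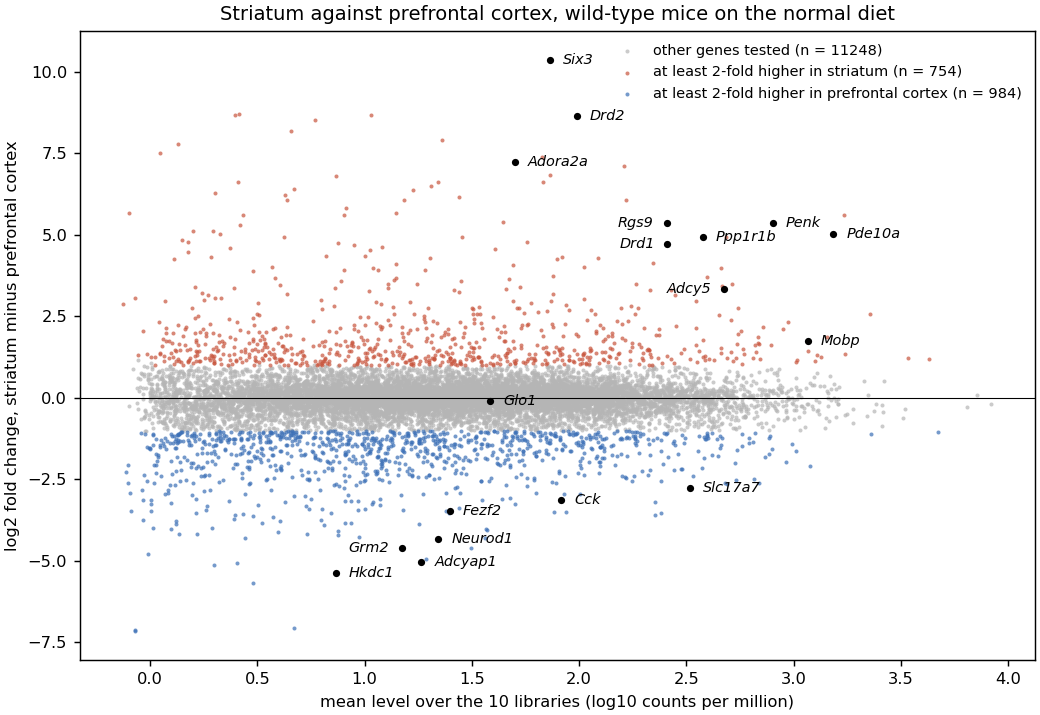
Each point is a gene, with its mean level over the 10 libraries on the x axis (log10 CPM) and its log2 fold change, striatum minus prefrontal cortex, on the y axis. Red points are the 754 genes at least 2-fold higher in striatum and blue points the 984 at least 2-fold higher in prefrontal cortex; the named striatal genes reach log2 fold changes of 10.37, while Hkdc1 in prefrontal cortex lies at -5.38.

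The 754 striatal genes took a median of 12.0 percent of all counts in striatum and 3.50 percent in prefrontal cortex. The 984 prefrontal genes took 9.75 percent in prefrontal cortex and 3.28 percent in striatum. In the hippocampus of the same mice, which the choice of these genes did not use, the shares were 4.51 and 7.71 percent.

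Signalling genes of medium spiny neurons were higher in striatum throughout their list. All 31 members of that list that were in the table were higher in striatum, against 22.0 percent of all genes, with a median log2 fold change of 3.99. Together they rose from between 2543 and 2755 CPM in the prefrontal libraries to between 22401 and 23855 CPM in the striatal ones. The smallest differences on the list were those of Arpp19 (0.87), Rgs14 (0.65) and Oprd1 (0.37). Oprd1 did not pass without mouse 272 (0.28) or mouse 286 (0.34). The list was drawn up with known striatal biology and earlier results of these data in view, so that its direction is a description.

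Drd1 (chr13:54051183-54055705, GRCm38) encodes the dopamine receptor that raises cyclic AMP. Its level in prefrontal cortex was 15.2, 17.4, 16.2, 26.8 and 20.6 CPM in mice 272, 273, 283, 286 and 317, the order used for all values below. In striatum it was 495, 501, 485, 522 and 484 CPM. The striatal libraries thus lay within a narrow band far above the prefrontal ones, and the fold change was 4.71 (SE 0.12, adjusted p = 5.9e-17).

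Drd2 (chr9:49340627-49408177) encodes the receptor that lowers cyclic AMP. It was almost silent in prefrontal cortex, at 0.552, 0.389, 0.400, 0.392 and 0.616 CPM. Striatal values were 213, 147, 201, 190 and 222 CPM. The fold change of 8.65 (SE 0.14) was the largest on the list, and the groups did not overlap. Adora2a (chr10:75316877-75334784), the adenosine receptor of that class, followed with 1.10, 0.389, 0.800, 0.686 and 0.352 CPM in prefrontal cortex and 101, 72.4, 108, 113 and 102 CPM in striatum (log2 fold change 7.23, SE 0.16). Mouse 273 gave the lowest striatal value of both genes. Further large differences were those of Syndig1l (7.12), Slc35d3 (6.16), which traffics the D1 receptor, and the orphan receptor Gpr6 (6.09).

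Ppp1r1b (chr11:98348404-98357796) encodes DARPP-32, which becomes an inhibitor of protein phosphatase 1 when protein kinase A phosphorylates it. It stood at 23.2, 26.4, 23.0, 21.2 and 25.1 CPM in prefrontal cortex. In striatum it reached 794, 542, 734, 755 and 822 CPM, again lowest in mouse 273 and without overlap (log2 fold change 4.93, SE 0.11). Pde10a, the striatal phosphodiesterase that degrades cyclic AMP and cyclic GMP, was at 119, 120, 72.3, 74.2 and 83.2 CPM in prefrontal cortex and at 3116, 2794, 2769, 2964 and 3229 CPM in striatum. Scn4b, an auxiliary sodium channel subunit that shapes resurgent current, went from 37.1, 27.2, 32.1, 28.5 and 29.0 CPM to 975, 789, 913, 1023 and 997 CPM. Another gene on the opposite strand covers 15.7 percent of the exonic bases of Ppp1r1b. Pde10a and Scn4b were more than 16-fold higher in every striatal library than in any prefrontal one.

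Markers of the direct and of the indirect pathway were both higher in striatum. Of 9 direct pathway genes tested, 8 were higher in striatum and 0 in prefrontal cortex; Eya1 (0.10) did not pass. Of 7 indirect pathway genes tested, 6 were higher in striatum and 0 in prefrontal cortex; Ptprm (0.18) did not pass. Slc35d3, Isl1 and Drd1 led the former list, with Ebf1 (2.57), and Drd2, Adora2a, Gpr6, Penk and Upb1 (5.03) led the latter, with Sp9 (2.79). Upb1 stood at 5.93 without mouse 317, and Ptprm passed without mouse 273 (0.25). The median log2 fold change was 2.57 for the direct and 5.37 for the indirect list.

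The peptides of the pathways followed their receptors. Penk (chr4:4133531-4138819), the enkephalin precursor, was at 44.0, 44.9, 33.6, 36.1 and 31.8 CPM in prefrontal cortex and at 1692, 1369, 1690, 1571 and 1470 CPM in striatum (log2 fold change 5.37, SE 0.11). Tac1 (chr6:7554879-7565834), which encodes substance P and neurokinin A, went from 14.7, 12.2, 8.90, 11.6 and 14.8 CPM to 201, 229, 179, 211 and 176 CPM. Pdyn (chr2:129686565-129699844), the dynorphin precursor, had the smallest step of the peptides, from 15.2, 16.6, 15.9, 11.6 and 20.8 CPM to 61.1, 63.0, 82.1, 72.7 and 88.0 CPM (log2 fold change 2.20, SE 0.11). None of the 3 overlapped between the regions. In RPKM, which divide the count by gene length so that genes can be set side by side, striatal Penk averaged 954, Tac1 58.6 and Pdyn 25.4.

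**Figure D2:**
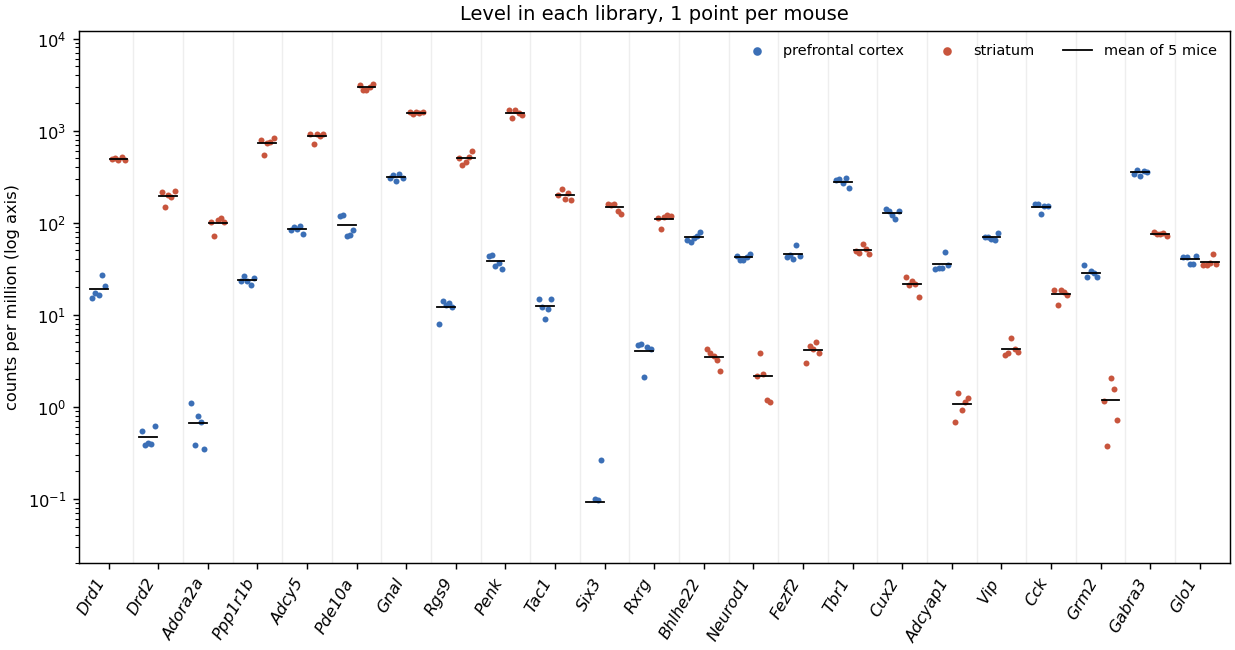
Each point is 1 library, with CPM on a log axis, prefrontal cortex in blue, striatum in red and the mean of 5 mice as a bar; the 2 prefrontal libraries in which Six3 had 0 counts are not drawn. Every gene shown but Glo1 has separate groups: for Drd1 the prefrontal points lie between 15.2 and 26.8 CPM and the striatal ones between 484 and 522 CPM.

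Transcription factors of the striatal lineage formed the next group. Of 25 tested, 18 were higher in striatum and 3 in prefrontal cortex, with a median log2 fold change of 2.25. Six3 (chr17:85613608-85629302), a homeobox factor of indirect pathway neurons, showed the largest difference of any gene named here: it had 5 counts over the 5 prefrontal libraries (0, 0, 0.10, 0.0980 and 0.264 CPM), against 161, 156, 158, 134 and 124 CPM in striatum. Its log2 fold change was 10.37, and 11.26 without mouse 317. Isl1 (chr13:116298281-116309689), a LIM homeobox factor of direct pathway and cholinergic neurons, had 2 counts in prefrontal cortex, both in mouse 286. Its striatal values were 23.9, 23.5, 17.4, 23.8 and 17.7 CPM. The ratio of the summed levels was 546, with a 95 percent counting interval from 151 to 4510.

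Retinoid receptors were prominent among these factors. Rxrg was at 4.64, 4.86, 2.10, 4.41 and 4.22 CPM in prefrontal cortex and at 113, 84.9, 116, 121 and 119 CPM in striatum. Rarb went from 8.95, 7.48, 8.40, 5.59 and 8.71 CPM to 150, 151, 138, 160 and 153 CPM. Exons of Top2b and Gm48162 on the other strand cover 38.4 percent of the exonic bases of Rarb, and whether the counting used strand is not given in the sources used here. Among the other factors were Meis1 (3.92), Zfp503 (3.91), Dlx6 (3.35), Bcl11b (2.55), Foxp2 (2.56) and Foxp1 (2.07). Dlx1 (-1.08) and Foxp4 (-0.82) were among those that went the other way, and Dlx2, Sp8, Ikzf2 and Nr4a1 did not pass. Sp8 (-0.74) passed without mouse 272 (-0.91) or mouse 273 (-0.95).

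The retinoic acid pathway as a whole was mixed. Of 18 genes tested, 9 were higher in striatum and 4 in prefrontal cortex. Besides the receptors, the binding protein gene Crabp1 was higher in striatum (5.12, from 0.0990 to 3.85 CPM). The 4 genes higher in prefrontal cortex were the synthesizing enzymes Aldh1a3 (-5.12) and Aldh1a2 (-1.99), the degrading enzyme Cyp26b1 (-2.44) and the receptor Rara (-1.46). Without mouse 272, Aldh1a3 stood at -6.20. Aldh1a1, another synthesizing enzyme, was higher in striatum (1.13). Aldh1a2 is also a meningeal gene, and meningeal genes were higher in the prefrontal libraries, as given below.

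Genes of cortical projection neurons went the opposite way. Of 30 tested, 25 were higher in prefrontal cortex, against 23.0 percent of all genes, and 4 in striatum, with a median log2 fold change of -2.03. The summed level was between 12702 and 13756 CPM in prefrontal cortex and between 10038 and 11364 CPM in striatum, a smaller step than the counts of members would show. The 4 members against the direction were Arpp21 (2.56, from 662 to 3904 CPM), Lmo3 (1.28), Camk4 (1.27) and Ngef (1.15), and Egr3 did not pass. Arpp21, a phosphoprotein regulated by cyclic AMP, also stands on the list of medium spiny neuron genes.

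Proneural and layer-defining factors led the cortical genes. Neurod1 was at 43.6, 39.2, 38.9, 42.8 and 45.7 CPM in prefrontal cortex and at 2.18, 3.88, 2.28, 1.20 and 1.13 CPM in striatum. Bhlhe22, a bHLH transcriptional repressor found in projection neurons, was at 64.6, 61.5, 68.7, 71.7 and 78.6 CPM against 4.24, 3.88, 3.52, 3.21 and 2.47 CPM. Fezf2, which specifies subcerebral projection neurons, was at 42.6, 45.0, 40.2, 57.5 and 43.2 CPM against 2.98, 4.55, 4.25, 5.08 and 3.81 CPM. Log2 fold changes of the 3 were -4.32, -4.31 and -3.46, and their groups were far apart. Emx1 (-4.31), Slc30a3 (-3.85), the synaptic vesicle zinc transporter, and Neurod6 (-3.21) completed the leading members.

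Layer markers did not move as a block. Of 16 upper layer markers, 7 were higher in prefrontal cortex and 7 in striatum. Cux2, a factor of upper layer neurons, was at 140, 134, 121, 109 and 134 CPM in prefrontal cortex and at 25.8, 21.2, 23.4, 21.3 and 15.7 CPM in striatum, and Rasgrf2 (-2.56), Stard8 (-2.03) and Lhx2 (-1.16) shared that direction. Plxnd1 (1.23) and Calb1 (1.20) were higher in striatum. Of 25 deep layer markers, 13 were higher in prefrontal cortex and 8 in striatum. Tbr1, a factor of deep layer corticothalamic neurons, was at 290, 296, 268, 304 and 238 CPM in prefrontal cortex and at 49.5, 47.3, 59.0, 52.2 and 45.4 CPM in striatum, without overlap. The natriuretic peptide receptor Npr3 (-3.43) and Rprm (-2.39) also led in prefrontal cortex. Syt6 (2.75), Foxp2 (2.56), Pcp4 (2.18), Nr4a2 (1.90), Tle4 (1.34) and Nxph4 (1.08) were at least 2-fold higher in striatum although they mark deep cortical layers. Nxph4 did not pass without mouse 272 (0.86) or mouse 317 (0.92).

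**Figure D3:**
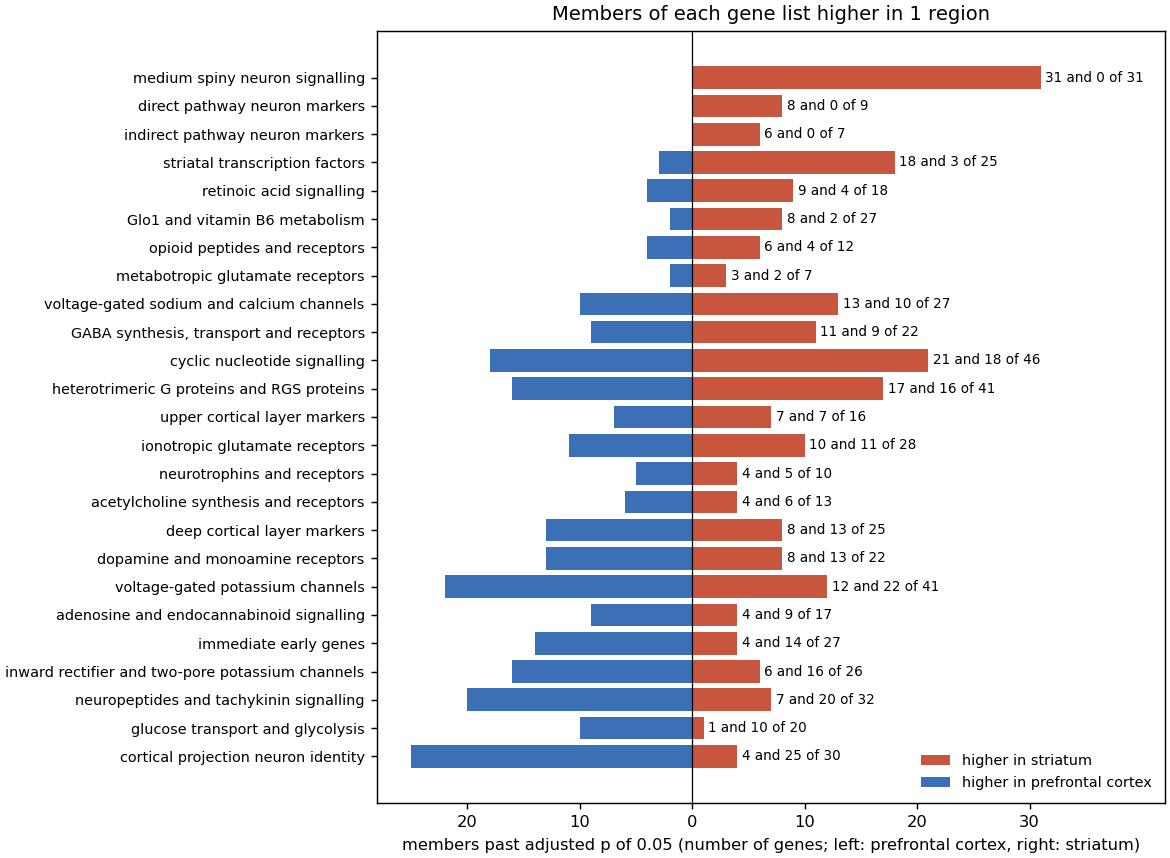
For each gene list, the bar to the right gives the number of members higher in striatum and the bar to the left the number higher in prefrontal cortex, out of the members tested; cell type marker lists are not drawn. Medium spiny neuron signalling (31 and 0 of 31) and cortical projection neuron identity (4 and 25 of 30) lie at the ends, and most signalling and channel lists have members on both sides.

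Cyclic nucleotide and G protein genes were split between the regions, often within 1 family. Of 46 cyclic nucleotide genes, 21 were higher in striatum and 18 in prefrontal cortex, with a median log2 fold change of 0.09. Of 41 genes for heterotrimeric G protein subunits and RGS proteins, 17 were higher in striatum and 16 in prefrontal cortex. The related genes set side by side in the next paragraphs were chosen after their values were seen.

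Adenylyl cyclases make cyclic AMP. Adcy5 was at 83.7, 90.7, 85.7, 92.4 and 74.6 CPM in prefrontal cortex and at 909, 710, 921, 871 and 909 CPM in striatum. In RPKM, Adcy5 rose from 12.2 to 123, whereas the calcium-stimulated Adcy1 fell from 94.4 to 28.8 and Adcy2 from 52.0 to 15.4. The most abundant cyclase of the 3 was therefore Adcy1 in prefrontal cortex and Adcy5 in striatum, with SDs over 5 mice between 1.00 and 12.6 RPKM.

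The stimulatory G protein showed the same exchange. Gnal, which encodes the olfactory type stimulatory subunit, was at 308, 333, 283, 338 and 302 CPM in prefrontal cortex and at 1610, 1501, 1595, 1566 and 1578 CPM in striatum. Its RPKM went from 54.3 to 273, and that of Gnas, the general stimulatory subunit, from 75.4 to 27.3. Gng7, the gamma subunit that pairs with Gnal, was at 51.8, 53.8, 56.8, 60.3 and 49.1 CPM in prefrontal cortex and at 896, 711, 887, 894 and 930 CPM in striatum. Gng2 (-1.45), Gng3 (-1.26) and Gng4 (-1.28) were higher in prefrontal cortex. Other genes share between 20.4 and 24.2 percent of the exonic bases of Gnas, Gng2 and Gng3.

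Proteins that end the signal differed as well. Rgs9, which speeds the hydrolysis of GTP downstream of D2 and opioid receptors, was at 7.84, 14.2, 12.8, 13.5 and 12.2 CPM in prefrontal cortex and at 505, 421, 457, 522 and 598 CPM in striatum. Its partner Gnb5 was also higher in striatum (1.52), as were Rgs2 (1.68) and Rgs8 (1.54), while Rgs6 (-1.41) and Rgs16 (-1.13) were higher in prefrontal cortex. Among phosphodiesterases, Pde1b (3.72), Pde7b (3.32), Pde1c (2.99) and Pde3a (2.19) were higher in striatum. Pde1a (-1.71), Pde5a (-1.25), Pde11a (-1.15) and Pde4a (-1.09) were higher in prefrontal cortex, though Pde11a did not pass with RIN as a covariate (-0.90). In RPKM, Pde1a fell from 73.5 to 22.5 as Pde1b rose from 18.8 to 249. Of the regulatory subunits of protein kinase A, Prkar2b rose from 34.6 to 83.4 RPKM and Prkar1b fell from 177 to 60.6 RPKM. Prkar2a (-0.59) was also higher in prefrontal cortex, and Prkar1a (-0.16) did not pass. Of the catalytic subunit genes, Prkaca (-0.46) was higher in prefrontal cortex and Prkacb did not pass (0.08).

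**Figure D4:**
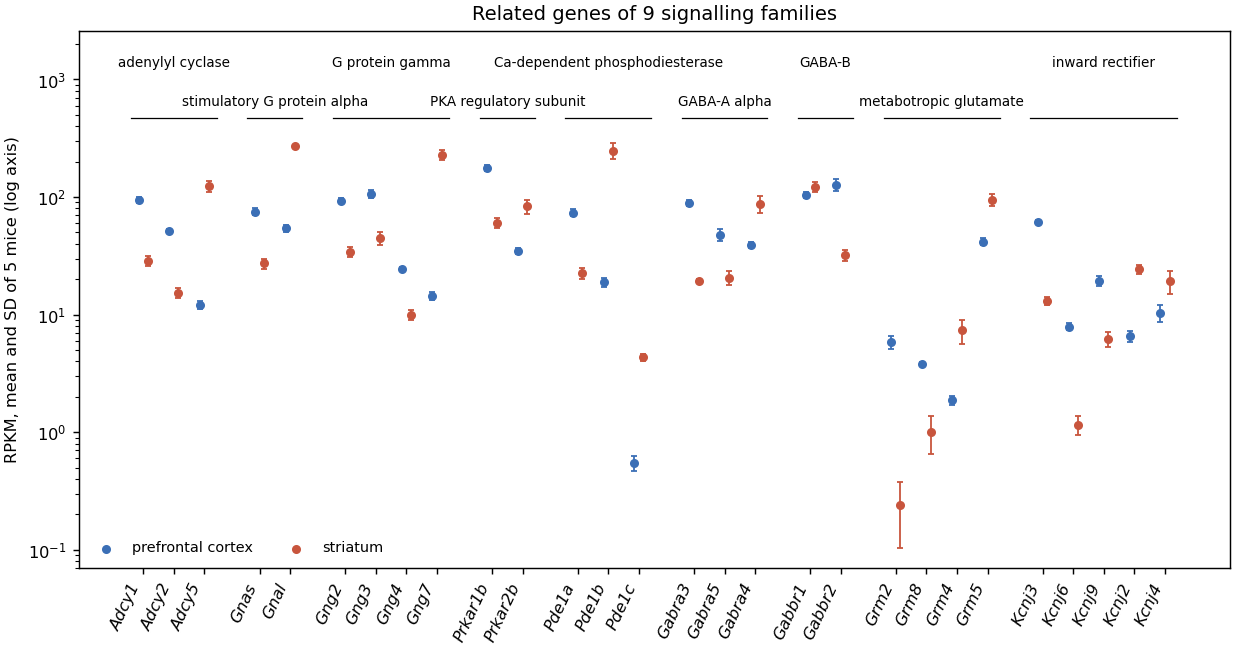
Points are mean RPKM of 5 mice with the SD as bars, on a log axis, in prefrontal cortex (blue) and striatum (red), for related genes of 9 families. Within the cyclases, Adcy1 falls from 94.4 to 28.8 RPKM and Adcy5 rises from 12.2 to 123. Members were chosen after their values were seen, so that both directions in each of the 9 families follow from the choice. Gabbr1 differed by 0.23 on the log2 scale and did not pass without mouse 272, 283 or 317.

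Genes of the neuropeptide list, which includes Tac1, were more often higher in prefrontal cortex. Of 32 tested, 20 were higher in prefrontal cortex and 7 in striatum, with a median log2 fold change of -0.77. Adcyap1 (PACAP) and Vip are related peptides that raise cyclic AMP, and Cck is made by cortical projection neurons and interneurons. The starts of their genes and of Tac1, which goes the other way, are printed here because the core motif TGACG of the cyclic AMP response element lies in each. Each run is the 100 bases before the start of the gene in RefSeq (GRCm38.p6). For Tac1 this lies inside the wider GENCODE limits given above, and for Adcyap1, with 2 starts listed, the most upstream was taken. In each run the capitals mark TGACG or, where the motif lies on the other strand, CGTCA.
Tac1 (chr6:7554961-7555060, plus strand): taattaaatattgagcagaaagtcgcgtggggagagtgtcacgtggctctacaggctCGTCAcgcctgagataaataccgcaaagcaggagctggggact
Cck (chr9:121495695-121495794, minus strand): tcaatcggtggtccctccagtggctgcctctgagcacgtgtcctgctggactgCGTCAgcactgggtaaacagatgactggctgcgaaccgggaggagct
Vip (chr10:5639118-5639217, plus strand): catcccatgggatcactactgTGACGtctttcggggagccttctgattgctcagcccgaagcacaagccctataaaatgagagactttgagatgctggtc
Adcyap1 (chr17:93198917-93199016, plus strand): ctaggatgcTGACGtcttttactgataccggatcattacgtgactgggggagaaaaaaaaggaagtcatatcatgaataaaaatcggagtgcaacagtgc

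The match began 43 bases before the start in Tac1, 47 in Cck, 79 in Vip and 91 in Adcyap1. Of the 10001 tested genes with a promoter in the table, 19.4 percent held the motif on either strand in these 100 bases. The share was 12.2 percent among genes at least 2-fold higher in striatum, 15.6 percent among those at least 2-fold higher in prefrontal cortex and 44.4 percent (12 of 27) in the neuropeptide list. A match says only that these letters are present: it occurs in peptide genes of either direction.

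Adcyap1 was at 31.5, 32.3, 31.9, 48.2 and 34.7 CPM in prefrontal cortex and at 0.687, 1.42, 0.933, 1.12 and 1.24 CPM in striatum (log2 fold change -5.03, SE 0.18). Vip was at 69.6, 69.3, 66.3, 64.1 and 77.9 CPM in prefrontal cortex against 3.67, 3.88, 5.60, 4.26 and 3.91 CPM. Cck was at 161, 158, 124, 151 and 150 CPM in prefrontal cortex against 18.4, 12.6, 18.7, 17.9 and 16.5 CPM in striatum. The groups of all 3 were apart. Grp (-5.68), gastrin-releasing peptide, and the receptor gene Cckbr (-3.11) shared the direction. Without mouse 286, Grp stood at -7.07. Npy (-0.84) showed a small difference. The 7 genes higher in striatum were Nts (4.94), Tacr3 (4.70), Galr1 (4.46), Tacr1 (4.29), Tac1 (4.01), Trh (3.07) and Npy2r (0.71). Tacr1 and Tacr3 are receptors for the tachykinins. Without mouse 272, Galr1 stood at 5.16, and Npy2r did not pass with RIN as a covariate (0.54).

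Opioid genes were of either direction, with 6 of 12, Penk and Pdyn included, higher in striatum and 4 in prefrontal cortex. Mme, the enkephalin-degrading peptidase neprilysin, was higher in striatum (4.30), as were the kappa receptor gene Oprk1 (2.75) and the mu receptor gene Oprm1 (1.79). Pnoc (-2.62), the nociceptin precursor, its receptor gene Oprl1 (-0.81) and the processing enzymes Pcsk1 (-1.51) and Pcsk2 (-0.33) were higher in prefrontal cortex.

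Receptors for monoamines divided by subtype. Of 22 tested, 8 were higher in striatum and 13 in prefrontal cortex. After Drd2 and Drd1, the striatal ones were the serotonin receptors Htr1d (5.60), Htr1b (2.85), Htr4 (2.14) and Htr2c (1.95), the adrenergic Adra2c (1.99) and the histamine receptor Hrh3 (0.57). The alpha-1 adrenergic receptors Adra1d (-4.18), Adra1b (-3.11) and Adra1a (-1.51), the serotonin receptors Htr1a (-2.10) and Htr3a (-1.53) and the histamine receptor Hrh1 (-2.01) were higher in prefrontal cortex. Drd5 did not pass. Without mouse 286, Adra1d stood at -4.94.

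The striatum holds giant aspiny interneurons that make acetylcholine. Of 13 acetylcholine genes tested, 4 were higher in striatum and 6 in prefrontal cortex. Chat, the synthesizing enzyme, had 5 counts over the prefrontal libraries and was at 9.28, 5.21, 10.8, 8.07 and 8.55 CPM in striatum (log2 fold change 6.23, and 7.21 without mouse 273). The choline transporter Slc5a7 (5.40) and the muscarinic receptor Chrm4 (2.13) were also higher in striatum, whereas the receptor subunits Chrnb3 (-4.19), Chrna5 (-1.83), Chrna4 (-1.30) and Chrm3 (-1.52) were higher in prefrontal cortex. Among cholinergic neuron markers, 6 of 7 were higher in striatum, Ecel1 (4.35) included, and Zic4 (-0.71) was higher in prefrontal cortex. Zic4 was lost without mouse 272 (-0.55), 283 (-0.58) or 286 (-0.75). Lhx8 had 0 counts in all prefrontal libraries and was at least 85.5-fold higher in striatum, taking 3 counts over the prefrontal libraries as the floor. Lhx8 and Chat are also expressed by septal and pallidal neurons, of whose 8 tested markers 4 were higher in striatum and 3, Npas1 (-2.91), Trpc4 (-1.08) and Zic4, in prefrontal cortex.

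Of 17 adenosine and endocannabinoid genes, 9 were higher in prefrontal cortex and 4, Adora2a included, in striatum. Nt5e (3.49), the ectoenzyme that makes adenosine, Slc29a1 (1.31) and the cannabinoid receptor gene Cnr1 (1.24) were the other striatal members. The degrading enzyme Faah (-2.15), Napepld (-1.54) and Cnrip1 (-1.34) were higher in prefrontal cortex.

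Metabotropic glutamate receptors were of either direction, with 3 of 7 higher in striatum and 2 in prefrontal cortex. Grm2, a presynaptic receptor coupled to the inhibitory G protein, was at 34.6, 25.7, 29.7, 28.0 and 25.4 CPM in prefrontal cortex and at 1.15, 0.379, 2.07, 1.57 and 0.721 CPM in striatum. Grm8 (-1.96) had the same direction. Grm4 (1.95) and Grm5 (1.18) were among those higher in striatum, where Grm5 averaged 94.7 RPKM. In prefrontal cortex Grm5 averaged 41.8 RPKM and Grm2 5.86 RPKM. Grm3 and Grm7 did not pass, but Grm3 did without mouse 273 (0.21). Ionotropic receptors and their auxiliary subunits were split as well, with 10 of 28 higher in striatum and 11 in prefrontal cortex. Cacng4 (2.27), Neto2 (1.77) and Grik2 (1.46) led in striatum and Cnih3 (-1.91), Grik1 (-1.63) and Grik4 (-1.54) in prefrontal cortex.

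GABA genes were split. Of 22 tested, 11 were higher in striatum and 9 in prefrontal cortex. Gad2, which makes GABA from glutamate with the active form of vitamin B6 as cofactor, was at 329, 342, 293, 335 and 365 CPM in prefrontal cortex and at 1025, 1205, 1001, 1003 and 1023 CPM in striatum. Slc32a1 (1.87), the vesicular transporter, Abat (1.26) and Gad1 (1.14) shared the direction. Gabra3 was at 341, 372, 320, 367 and 353 CPM in prefrontal cortex and at 78.3, 74.4, 76.2, 77.0 and 71.4 CPM in striatum. Of the alpha subunits, Gabra5 (-1.20) went with Gabra3, whereas Gabra4 (1.15) and the delta subunit Gabrd (1.37) were higher in striatum.

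The GABA-B receptor needs both of its subunits, and they parted here. Gabbr2 was at 949, 914, 680, 847 and 876 CPM in prefrontal cortex and at 216, 220, 250, 195 and 190 CPM in striatum. Gabbr1 averaged 104 RPKM in prefrontal cortex and 122 in striatum. Its log2 fold change of 0.23 passed the test with all mice but not without mouse 272 (0.21, adjusted p = 0.130), mouse 283 (0.21, adjusted p = 0.0907) or mouse 317 (0.18, adjusted p = 0.0823).

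More potassium channel genes were higher in prefrontal cortex than in striatum. Of 41 voltage-gated members, 22 were higher in prefrontal cortex and 12 in striatum. Their summed level went the other way, between 5448 and 5616 CPM in prefrontal cortex and between 5981 and 6199 CPM in striatum. Kcna4, which carries a rapidly inactivating current, was at 29.4, 32.1, 28.9, 31.0 and 28.3 CPM in prefrontal cortex and at 135, 145, 143, 146 and 144 CPM in striatum. Kcna5 (3.36), Kcnab1 (2.75), Kcnip2 (1.88) and Kcnh4 (1.49) shared its direction. Kcnc4 (-2.73) and Kcnc2 (-2.39), of the family that supports fast firing, Kcnab3 (-1.90) and Kcnh7 (-1.85) were higher in prefrontal cortex.

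Of 26 inward rectifier, two-pore and calcium- or sodium-activated members, 16 were higher in prefrontal cortex and 6 in striatum. The potassium leak channel Kcnk4 (-2.96) and Kcnk9 (-1.94) and the rectifier Kcnj13 (-3.47), also a choroid plexus gene, were among the former. Kcnj6, a subunit of the channels that G proteins open, was at 48.3, 45.7, 49.1, 46.7 and 40.6 CPM in prefrontal cortex and at 8.59, 5.40, 6.63, 5.75 and 7.41 CPM in striatum. Its partners Kcnj3 (-2.23) and Kcnj9 (-1.63) had the same direction, with 31.1 percent of the exonic bases of Kcnj3 shared with an antisense gene. The strong rectifiers Kcnj2 (1.90) and Kcnj4 (0.88), which hold medium spiny neurons at rest, were higher in striatum, together with Kcnk2 (2.00), Kcnn3 (1.53), Kcnk13 (1.16) and Kcnt1 (0.88).

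Sodium, calcium and pacemaker channels were balanced, with 13 of 27 higher in striatum and 10 in prefrontal cortex. Cacna1g (-2.16) was higher in prefrontal cortex, and Cacna2d3 (2.15), Cacna2d2 (1.56) and Scn3a (1.26) in striatum.

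Cortical neurons supply brain-derived neurotrophic factor to the striatum along the corticostriatal projection. Bdnf was at 62.8, 55.1, 56.4, 70.7 and 85.7 CPM in prefrontal cortex and at 11.2, 14.4, 12.3, 11.9 and 9.37 CPM in striatum. Gfra2 (-3.49), Ret (-0.86), Ntrk2 (-0.37) and Sort1 (-0.23) were also higher in prefrontal cortex, a count of 5 of 10 that dropped to 3 with RIN as a covariate or without mouse 272 or 273. Gdnf (5.31, from 0.116 to 5.12 CPM), Gfra1 (0.97) and Ntrk3 (0.24) were higher in striatum. Ret was lost without mouse 272 (-0.65), 273 (-0.78) or 317 (-0.76), Sort1 without mouse 272 (-0.23), 273 (-0.17) or 286 (-0.24), and Ntrk3 without mouse 272 (0.21).

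Activity-induced genes moved with the mouse as well as with the region. Of 27 immediate early genes, 14 were higher in prefrontal cortex and 4 in striatum, among them Ier2 (-2.11), Npas4 (-1.14), Fos (-1.07) and Nptx2 (-1.01). Their sum was 1374, 1384, 1667, 2149 and 2008 CPM in prefrontal cortex and 1427, 1440, 1859, 2006 and 1916 CPM in striatum. In either region, mice 272 and 273 had the lowest sums and mice 286 and 317 the highest. Nr4a2 went against the list, at 19.6, 19.5, 35.4, 36.3 and 34.6 CPM in prefrontal cortex and at 122, 107, 116, 106 and 80.7 CPM in striatum. Egr2 (0.55), Homer1 (0.40) and Per1 (0.36) also went against it. Without the mouse block, Egr2 (0.60, adjusted p = 0.206) and Per1 (0.34, adjusted p = 0.0917) did not pass, nor did Per1 with all 60 libraries (0.37, adjusted p = 0.125).

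Myelin genes were higher in striatum. The striatum is crossed by fibre bundles of the internal capsule, whose part in this difference was not tested. Of 19 oligodendrocyte and myelin markers, 18 were higher in striatum and 0 in prefrontal cortex, with a median log2 fold change of 1.34, and Olig2 (0.18) did not pass, but did without mouse 273 (0.33) and with RIN as a covariate (0.45). Mobp was at 562, 503, 671, 448 and 498 CPM in prefrontal cortex and at 1639, 1514, 2074, 1827 and 1926 CPM in striatum. Their sum was between 2447 and 3141 CPM in prefrontal cortex, between 6433 and 8070 CPM in striatum and between 5556 and 7378 CPM in hippocampus. Trf (1.55), Mog (1.55), Mbp (1.44) and Mal (1.43) shared the direction. Precursor markers did not follow: Pdgfra, Cspg4, Gpr17 and Matn4 did not pass, while Bcas1 (1.37) and Vcan (0.84) were higher in striatum and Tnr (-0.67) in prefrontal cortex.

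Of 16 astrocyte markers, 7 were higher in prefrontal cortex, led by Gjb6 (-1.09), Gfap (-0.76) and Slc6a11 (-0.62). The further ones included Aqp4 (-0.41), Slc1a3 (-0.39) and Fgfr3 (-0.34), while F3 (0.27) was higher in striatum. Fgfr3 was lost without mouse 272 (-0.32) or 273 (-0.27), and F3 without mouse 272 (0.24), 283 (0.28) or 286 (0.24). The remaining 8 astrocyte markers did not pass. The sum of astrocyte markers was between 10958 and 12950 CPM in prefrontal cortex and between 9666 and 10945 CPM in striatum. Most of it came from Slc1a2, which did not pass (-0.19) and averaged 8908 CPM in prefrontal cortex and 7790 CPM in striatum. Of 14 microglial markers, 2 were higher in striatum, among them Cx3cr1 (0.24), and between 0 (without mouse 272) and 5 (without mouse 273) were once a mouse was left out. Of 14 endothelial and mural markers, the smooth muscle gene Tagln (1.30) alone passed. All 11 meningeal and fibroblast markers were higher in prefrontal cortex, with sums between 201 and 247 CPM against 82.6 to 144 CPM, led by Slc22a6 (-2.83), Aldh1a2 (-1.99), Ogn (-1.56), Col1a2 (-1.51), Lum (-1.33) and Slc6a13 (-1.24). Slc22a6 stood at -3.44 without mouse 286. Interneuron markers were split, with 10 of 19 higher in prefrontal cortex, Calb2 (-2.18), Tac2 (-2.18) and Pvalb (-1.82) among them, and 7 in striatum, Nkx2-1 (4.59, and 5.33 without mouse 272), Slc17a8 (2.34), Th (2.12) and Reln (1.69) among them. Of 9 olfactory bulb and migrating neuroblast markers, 6 were higher in striatum, including the proliferation genes Top2a (2.01) and Mki67 (1.74), with Cdhr1 (1.33) and Cd24a (0.89), and Tubb3 (-0.71) and Dcx (-0.68) were higher in prefrontal cortex. Of 6 choroid plexus and ependymal markers tested, Clic6 (5.83), Foxj1 (1.29) and Rarres2 (1.24) were higher in striatum and Kcnj13 (-3.47) in prefrontal cortex. Kl and Rsph1 did not pass, and the choroid plexus gene Ttr, too low to be tested, was at most 2.04 CPM in these libraries. The 4 midbrain dopamine markers that could be tested (Th, Nr4a2, Aldh1a1 and Ddc) were higher in striatum, but Slc6a3, Slc18a2 and Pitx3, which define those neurons, were too low to be tested. Thalamic markers were even, with Synpo2 (2.76), Prkcd (0.62) and Plekhg1 (0.46) higher in striatum and Calb2, Ramp3 (-1.94) and Slc17a6 (-0.77) in prefrontal cortex. None of the 3 blood markers tested passed, and all 9 hypothalamic markers were too low to be tested. The part of these cell types in the differences above was not tested.

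Glo1, the glyoxalase that clears methylglyoxal and the gene deleted elsewhere in the series, did not differ between regions. It was at 41.9, 42.3, 36.0, 35.5 and 43.4 CPM in prefrontal cortex and at 34.2, 34.4, 36.9, 45.4 and 35.3 CPM in striatum (log2 fold change -0.09, SE 0.11, adjusted p = 0.53), with overlapping groups. In knockout mice it was between 0 and 1.01 CPM in these regions. Of 27 genes of methylglyoxal and vitamin B6 metabolism, 8 were higher in striatum and 2 in prefrontal cortex, the former near the 22.0 percent of all genes. Besides Gad2, Abat and Gad1, the striatal genes were Shmt1 (1.37), Kyat3 (1.12), Ddc (0.69), the kinase gene Pdxk (0.58), which activates the vitamin, and Psat1 (0.30). Ddc was lost without mouse 286 (0.58) or 317 (0.47), and Psat1 without mouse 272 (0.26) or 286 (0.26). With RIN as a covariate, Shmt1 (1.20) and Ddc (0.83) did not pass. Alpl (-0.47) and Akr1a1 (-0.32) were higher in prefrontal cortex with all mice. Alpl was lost without mouse 272 (-0.37), 273 (-0.44), 286 (-0.47) or 317 (-0.47), and with RIN as a covariate 0 genes passed in that direction.

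Of 20 genes of glucose transport and glycolysis, 10 were higher in prefrontal cortex, none of them by 2-fold. The hexokinase Hk1 (-0.79) and the phosphofructokinase Pfkl (-0.78) led, followed by Pgam1 (-0.50), Ldha (-0.46), Aldoa (-0.33) and Tpi1 (-0.32), and Ldhb (0.30) was higher in striatum. Aldoa was lost without mouse 273 (-0.19), 283 (-0.32) or 286 (-0.31), Tpi1 without mouse 273 (-0.19) or 286 (-0.31), and Ldhb without mouse 272 (0.27) or 286 (0.27). The count of 10 dropped to 6 with RIN as a covariate, and the summed level ranged from 3517 to 4185 CPM in prefrontal cortex and from 2712 to 4091 CPM in striatum, lowest in the striatum of mouse 273.

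Among the 12 largest striatal differences by the naming rule, besides Six3, Isl1, Drd2, Adora2a and Syndig1l, were Ptpn7, Serpina9 (7.92), Sh3rf2 (7.40), Cd4 (6.84), Slc10a4 (6.81), Lrrc10b (6.63) and Clspn (6.62). Cd4, the T cell coreceptor, averaged 1.22 CPM in prefrontal cortex (SD 0.684) and 145 CPM in striatum (SD 18.6). Clspn, a replication checkpoint gene, averaged 0.433 CPM (SD 0.364) and 43.5 CPM (SD 4.03). Ptpn7 had 1 count over the prefrontal libraries, and its ratio was 598 with a 95 percent counting interval from 107 to 23654. Without mouse 317, Serpina9 stood at 8.64, and without mouse 272, Slc10a4 stood at 7.41. Of the 50-base stretches of Slc10a4, 29.4 percent also occur in Gm5868, so that its level is uncertain.

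By the same rule (a mean of at least 5 CPM over the 10 libraries and no overlap between regions), the 12 largest prefrontal differences were Hkdc1 (-5.38), Adcyap1, Glt8d2 (-4.93), Fam19a1 (-4.61), Grm2, Neurod1, Bhlhe22, Prg4 (-4.28), Myl4 (-4.20), Tnnc1 (-4.17), Myoc (-4.07) and Prdm8 (-4.07). Hkdc1, a hexokinase-like gene, averaged 14.4 CPM in prefrontal cortex (SD 3.43) and 0.307 CPM in striatum (SD 0.272). Myl4 and Tnnc1, known as muscle light chain and troponin genes, averaged 14.3 and 10.3 CPM in prefrontal cortex and under 1 CPM in striatum. Prdm8, a partner of Bhlhe22 in projection neurons, shares 29.1 percent of its exonic bases with a gene on the other strand. Without mouse 286, Hkdc1 stood at -6.07, Prg4 at -6.37 and Myoc at -5.04.

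The region difference returned in the mice that the choice of genes had not used. Of the 754 genes at least 2-fold higher in striatum, 726 of the 749 tested were higher there in wild-type mice on the lacking diet, 712 of 734 in knockout mice on the normal diet and 722 of 743 in knockout mice on the lacking diet. The shares of all genes higher in striatum were 22.6, 24.8 and 26.3 percent in these groups. Of the 984 prefrontal genes, 937 of 969, 947 of 965 and 931 of 952 were higher in prefrontal cortex, against 22.5, 24.5 and 26.8 percent of all genes. None of these genes passed in the opposite direction in any of the 3 groups. The median log2 fold change of the striatal genes was 1.52, 1.57 and 1.55 in the 3 groups, and that of the prefrontal genes -1.59, -1.63 and -1.61.

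A test of the difference itself found no gene whose region contrast varied among the 4 groups of mice. All wild-type libraries were labelled batch 2 and all knockout libraries batch 1, so that genotype and batch cannot be told apart in it. Of 13677 genes in the 40 libraries of both regions, 0 passed, which is 0 percent (edgeR quasi-likelihood F-test of the interaction, mouse as a block), and 419 had an unadjusted p below 0.05. Ccr6 and Drd2 had the lowest p. For Drd2, the log2 fold change was 8.65 here and 7.98, 7.49 and 6.91 in the other groups (adjusted p = 0.974), with prefrontal levels near the floor. Without the block, 1 gene passed (Ccr6), and limma on log2(RPKM + 1) called 2 (Slc22a3 and Sstr5). These genes were named after their values were seen.

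**Figure D5:**
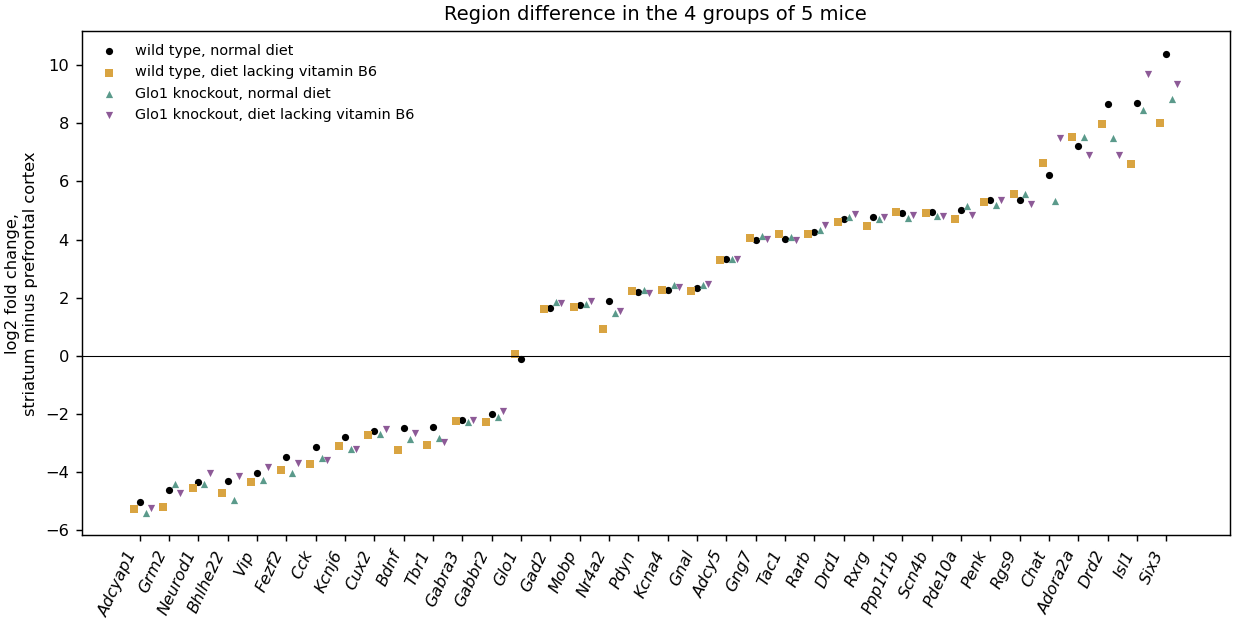
For each gene given by library, points show the log2 fold change, striatum minus prefrontal cortex, in the 4 groups of 5 mice; Glo1 was too low to be fitted in the knockout groups. Every gene but Glo1 keeps its side of 0 in all 4 groups, and the groups spread most for Six3, Isl1, Drd2 and Chat, whose prefrontal levels are near 0.

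Hippocampal means of the same mice lay between the prefrontal and striatal means for most of the genes that differed by at least 2-fold. Those genes were chosen for a wide gap between the prefrontal and striatal means, so that another value falls between them easily. The share among all genes tested was not taken, so that the counts cannot show an intermediate place of the hippocampus. Of the 754 striatal genes, the hippocampal mean lay between the prefrontal and striatal means for 461, below both for 237 and above both for 56. Of the 984 prefrontal genes it lay between for 617, below both for 100 and above both for 267. Drd1 averaged 6.51 CPM in hippocampus (SD 1.67), below both regions, and Ppp1r1b 15.2 CPM (SD 5.84). Bhlhe22 (177 CPM, SD 26.6), Neurod1 (111 CPM, SD 38.9) and Kcnj6 (61.3 CPM, SD 2.60) were above their prefrontal means, while Cux2 (22.3 CPM, SD 3.36) was near its striatal mean and Cck (74.6 CPM, SD 9.36) lay between. Nr4a2 averaged 147 CPM in hippocampus (SD 34.5). The hippocampal order is a description with no test.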

How the data were processed

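The authors deposited raw counts per gene and RPKM for 60 libraries (poly(A) RNA, 75-bp single-end reads, per the labels' protocols); STAR 2.7.1a, HTSeq 0.9.1 and mm10 are named in the submitters' processing notes. The deposited RPKM equalled the count over gene length and column total for all 18514 genes with a count, and 0 value columns were unmatched. Per region 5 libraries entered, between 8730171 and 13384356 counts each; intervals and the floor of 3 counts cover counting error only. edgeR 4.0.16 (R 4.3.3) was run with TMM factors, filterByExpr (minimum count 10, total 15) and mouse as a block. The block was used since both libraries came from 1 animal by number. Across genes, deviations from the region mean correlated between -0.27 and 0.20 for libraries of the same mouse. For different mice they correlated between -0.22 and 0.41, so that these values do not show the pairing. Standard errors came from the F statistic. The members, lists and tests were chosen with earlier results of these data known. Named genes were Glo1, the 12 largest called differences per direction (mean of at least 5 CPM, no overlap), and per list up to 6 called members plus those against its direction, values by library for up to 5; in evenly split lists the opposing members are given by counts, and further genes named beside these were chosen after their values were seen. Alternatives were no block, no TMM, RLE, DESeq2 1.42.0, limma 3.58.1 on log2(RPKM + 1) or log2(RPKM + 0.1), other filters, RIN, all 60 libraries and each mouse left out. In simulated data of this comparison (12919 genes), 83.8 percent of genes changed 1.5-fold, 93.9 percent of 2-fold and 100 percent of 4-fold were found. There were 7 false of 192 calls, and 0 calls without changes. The simulation changed 200 genes and gave all genes the same dispersion. In the real comparison 44.9 percent of genes passed, so that the simulated shares do not measure its error. Positions are from GENCODE (GRCm38) and promoters from RefSeq. The table lists 13 mitochondrially encoded genes at 0 in all libraries, not analysed here. Some named items are not reported here.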

Additional observations from a re-analysis of the deposited data

Results flagged for a closer look

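Of 76 groups of 5 values examined (the genes given by library, RIN and library totals, per region), 11 held a value far from the rest by Dixon's criterion, where chance gives about 1 in 20, or 3.8. In striatum, mouse 273 was lowest for Adcy5 (710.3 CPM, others from 871 to 921), Adora2a (72.36 CPM, others from 101 to 113), Gng7 (711.5 CPM, others from 887 to 930) and Rxrg (84.86 CPM, others from 113 to 121), and highest for Gad2 (1205 CPM, others from 1001 to 1025). The same library had the largest chi-square per gene. Mouse 272 was lowest for Kcna4 in striatum (134.9 CPM, others from 143 to 146), and mouse 286 highest for Glo1 (45.35 CPM, others from 34.2 to 36.9). In prefrontal cortex, mouse 286 was highest for Adcyap1 (48.23 CPM, others from 31.5 to 34.7), Fezf2 (57.45 CPM, others from 40.2 to 45.0) and Isl1 (0.1961 CPM, the others at 0). Mouse 283 was lowest in prefrontal cortex for Rxrg (2.1 CPM, others from 4.22 to 4.86). The cause was not tested. Each of these genes but Glo1 differed between regions with and without the mouse in question.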

How the results depend on the processing

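Leaving out each mouse gave between 2338 and 2863 genes higher in striatum, 2563 and 2971 higher in prefrontal cortex, and, at 2-fold, between 752 and 785 and between 975 and 1017. Without the replicate block, 2996 and 3117 genes passed (747 and 982 at 2-fold), so that the pairing by mouse moved none of these 4 counts by 1.5 times, while the count for the interaction went from 0 to 1. Limma on log2(RPKM + 1) gave 434 and 546 genes at 2-fold, since the pseudocount shrinks folds of low genes, and 2 genes for the interaction. With RIN as a covariate 2387 and 2653 genes passed. The counts of the 7 region lists stayed within 1.5 times under all settings, while the 57 counts of the other lists moved further in 20 of 285 values with a mouse left out and 21 of 570 others. For the 286 named genes, 0 of 1430 values with a mouse left out and 0 of 2858 values under the other settings reversed; 40 and 32 lost the threshold, and 5 and 11 passed it newly. Depth limits genes near 0 in 1 region, whose folds are loosely bounded.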
